A study of Mus musculus with 8 samples.

Results

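The mitochondrial solute carriers of the SLC25 family were examined in the quadriceps (QUAD) of mice exposed to D-galactose (D-gal). Members were all genes of the count table whose symbol starts with Slc25a, which gave 38 of 12171 genes. They were grouped by substrate, with a last group for uncoupling-protein-like and other members, some without a settled substrate. Both groups were male C57BL/6 J mice, 6 weeks old on arrival, which after 1 week of acclimation were injected subcutaneously with D-gal at 100 mg/kg every day for 12 weeks, a treatment used to bring on features of ageing. The D-gal + MSCs mice also received human mesenchymal stromal cells from the Wharton's jelly of the umbilical cord, at 1000000 cells per mouse into the QUAD, tibialis anterior and gastrocnemius muscles, in 6 cycles spaced 7 days apart. The D-gal + PBS mice received the same volume of PBS without cells. One library was made from the QUAD of each of 4 mice per group, so a difference here is one between cell injection and PBS injection in mice that all carried D-gal.

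Most SLC25 carriers are small proteins of the mitochondrial inner membrane, built from repeated pairs of membrane-spanning helices. They exchange a solute of the matrix for one of the space outside. Among the members, Slc25a17 is instead a peroxisomal carrier and Slc25a46 a protein of the outer membrane. The inner membrane carriers bring ADP, phosphate, acylcarnitines, amino acids and cofactors in and take ATP and other products out. In skeletal muscle they are known above all for ATP export, through the adenine nucleotide translocases, and for the entry of fuels. A subgroup, the ATP-Mg/phosphate carriers, has calcium-binding EF-hands and sets the total pool of adenine nucleotides in the matrix rather than exchanging ADP for ATP one to one.

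Levels are counts per 1000000 counts of the TMM-scaled library (CPM). Log2 fold changes come from edgeR's quasi-likelihood fit to all 12171 genes, and a positive value is higher in D-gal + MSCs. A gene was called higher or lower at the thresholds the study used, an unadjusted p under 0.05 and a log2 fold change of 0.5 or more in size. The study names DESeq2 for its calls, whereas calls here are from edgeR unless another tool is named. Among the 38 carriers, 2 were called higher (Slc25a20 and Slc25a34), beside 3.76% of all genes, and 1 was called lower (Slc25a25), beside 3.06% of all genes. With DESeq2 at the same thresholds, 523 genes were called higher and 433 lower, and Slc25a22 was a further carrier called higher. No carrier passed an adjusted p under 0.05 in edgeR (Benjamini-Hochberg over all genes). The count was 0, with 4 carriers at an unadjusted p under 0.05, while limma-voom also gave 0 and DESeq2 gave 1. That gene was Slc25a25, lower, and the DESeq2 calls at the adjusted threshold took in 1.06% of all genes as lower and 1.40% as higher, the latter with 0 carriers. Across all genes edgeR likewise gave 0 at the adjusted threshold and 1308 at an unadjusted p under 0.05. The fold changes of the carriers had a median of 0.08 against -0.003 over all genes, with 26 above 0 and 12 below. In 2 carriers, Slc25a25 and Slc25a14, every D-gal + MSCs mouse lay below every D-gal + PBS mouse, beside 3.19% of all genes, and in 0 carriers every D-gal + MSCs mouse lay above, beside 3.09% of all genes. With 3 of 38 carriers called in edgeR, these shares were near those of all genes and are no result about the family as a whole.

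**Figure D1:**
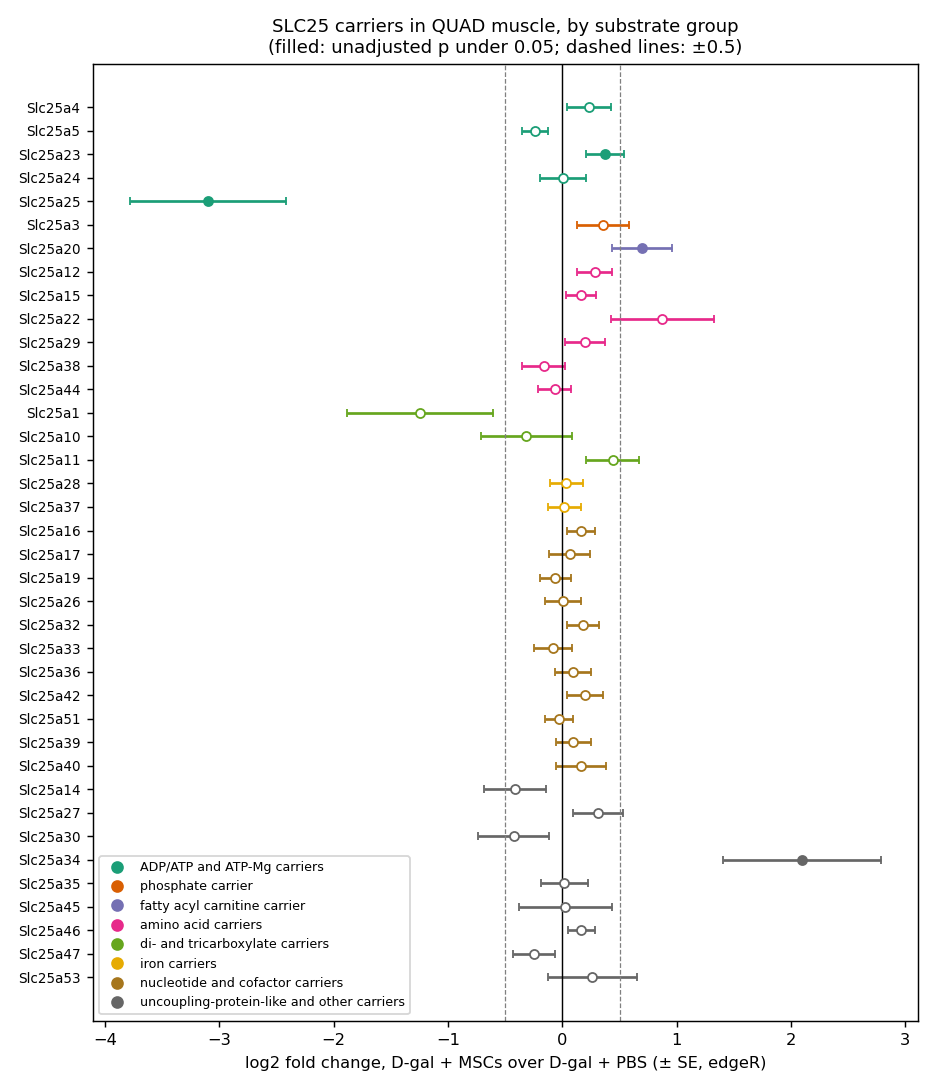
Log2 fold change of each of the 38 SLC25 carriers (horizontal axis, D-gal + MSCs over D-gal + PBS, bars ± SE from edgeR), coloured by substrate group, with filled points for an unadjusted p under 0.05. Slc25a25 stands alone at -3.10 and Slc25a34 at 2.09, while most carriers lie between the dashed lines at -0.5 and 0.5.

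Total counts ranged from 32772221 to 40057968 per library and carriers took 0.537% to 0.670% of them. TMM factors ran from 0.760, in D-gal + MSCs replicate 4, to 1.14, in D-gal + PBS replicate 2. The share of counts from mitochondrial DNA was 13.9% to 18.6% in D-gal + PBS and 22.6% to 36.6% in D-gal + MSCs. Markers of fast glycolytic fibres, 10 of 10 measured, summed to 91443 to 105997 CPM in D-gal + PBS and 67408 to 95600 CPM in D-gal + MSCs. They went both ways, with Actn3 and Pvalb called lower and Myh1, the IIx myosin, called higher at a log2 fold change of 1.55 ± 0.22 (SE, adjusted p 0.0512 in edgeR) with no overlap between the groups. Markers of slow and oxidative fibres, 11 of 11 measured, summed to between 989 and 2530 CPM in D-gal + PBS and between 2738 and 13989 CPM in D-gal + MSCs. These sums did not overlap, but myoglobin, Mb, made up 1902 of 2425 CPM in D-gal + PBS replicate 1, and of the 11 markers taken singly only Myh2 had groups without overlap. The slow-fibre genes Myh7, Tnnt1, Tnnc1 and Tnni1 were lower in D-gal + MSCs replicates 1 and 2 than in D-gal + PBS replicates 1 and 3. Among the markers Tnni1 and Myl2 were at 0 counts in D-gal + PBS replicate 2, and 3 of 11 (Myh2, Mb and Myl3) were called higher. In bulk muscle, fewer cells or fibres of a type and less RNA per cell cannot be told apart. No label names a litter, cage or sequencing run for any mouse, so no batch could be compared. Of the markers of other cell types, 1 of 5 endothelial genes was called higher, and 2 of 6 fibroblast, 1 of 6 macrophage and 0 of 4 smooth muscle genes were called lower.

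Levels between carriers were compared only per kilobase of exon length. Slc25a4, which encodes the muscle ADP/ATP exchanger ANT1, stood highest at a mean of 1401 CPM per kilobase in D-gal + PBS, and it supplied between 54.4% and 60.0% of all carrier counts in a library. The phosphate carrier Slc25a3 followed at 161, the oxoglutarate/malate carrier Slc25a11 at 104, the aspartate/glutamate carrier Slc25a12 at 53.3 and the other ADP/ATP exchanger Slc25a5 at 29.1 CPM per kilobase. Slc25a25 came seventh of the 38 in D-gal + PBS, at 17.2 CPM per kilobase, and its mean in D-gal + MSCs was 2.01. The lowest was Slc25a53, a carrier without a settled substrate, at 0.191 CPM per kilobase.

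Slc25a25, Slc25a20 and Slc25a34 were the carriers past the study's thresholds in edgeR. The sequence at their starts is shown because their levels are what the results turn on. Each run is 300 bases from RefSeq on build GRCm38.p6, from 250 bases before to 50 bases after an annotated start, read 5′ to 3′ along the gene. Of the 38 carriers, 29 matched this table. Slc25a25 has 3 annotated starts in it, on chromosome 2, and the gene-level counts do not say which one was used. Capitals mark TGACGTCA, the cAMP response element, or AAAGGTCA (TGACCTTT on the other strand), the site that NR4A receptors bind as monomers. The Slc25a25 start shown lies at chr2:32424017-32424316 on the minus strand, that of Slc25a20 at chr9:108661886-108662185 on the plus strand and that of Slc25a34 at chr4:141623785-141624084 on the minus strand.
Slc25a25: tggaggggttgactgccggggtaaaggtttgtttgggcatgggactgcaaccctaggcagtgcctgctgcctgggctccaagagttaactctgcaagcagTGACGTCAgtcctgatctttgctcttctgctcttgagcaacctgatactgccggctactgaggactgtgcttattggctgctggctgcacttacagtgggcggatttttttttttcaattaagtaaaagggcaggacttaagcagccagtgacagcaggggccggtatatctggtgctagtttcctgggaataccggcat
Slc25a20: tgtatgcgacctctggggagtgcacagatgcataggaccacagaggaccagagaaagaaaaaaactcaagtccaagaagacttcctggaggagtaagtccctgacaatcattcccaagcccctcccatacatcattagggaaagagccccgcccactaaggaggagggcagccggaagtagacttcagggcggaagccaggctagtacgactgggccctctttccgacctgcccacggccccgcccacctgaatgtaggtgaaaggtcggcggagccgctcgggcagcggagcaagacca
Slc25a34: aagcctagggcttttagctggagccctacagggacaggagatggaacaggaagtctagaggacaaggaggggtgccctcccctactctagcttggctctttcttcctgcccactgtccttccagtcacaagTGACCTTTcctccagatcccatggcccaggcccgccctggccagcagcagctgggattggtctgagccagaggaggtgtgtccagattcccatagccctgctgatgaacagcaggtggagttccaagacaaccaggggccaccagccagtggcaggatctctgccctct
The element in Slc25a25 begins 150 bases before this start and none was found at the other 2 starts. Those 2 starts held no marked stretch of either kind, so the start shown does not stand for them. The 29 matched carriers have 38 promoters in the table. Searched on both strands, TGACGTCA was in 1.79% of all 32851 promoters and in 2 of the 38, those of Slc25a25 and Slc25a36. AAAGGTCA was in 1.51% of all promoters and in 1 of the 38, that of Slc25a34. The shorter AGGTCA, which overlaps it, was in 16.26% of all promoters and in 4 of the 38, and the Slc25a20 stretch held neither. These matches describe the letters in a window and not binding, and the motifs were picked with the levels of these genes known.

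Among the ADP/ATP and ATP-Mg carriers, 5 members were measured, of which 0 were called higher and 1 was called lower. Slc25a25 encodes SCaMC-2, an ATP-Mg/phosphate carrier that calcium activates. Its level was 62.3, 120, 110 and 248 CPM in D-gal + PBS replicates 1 to 4 and 6.43, 34.5, 10.2 and 12.1 CPM in D-gal + MSCs replicates 1 to 4. All D-gal + MSCs mice were below all D-gal + PBS mice, and the lowest D-gal + PBS mouse was 1.81-fold above the highest D-gal + MSCs mouse. Within each group the level was also uneven, with D-gal + PBS replicate 4 3.99-fold above replicate 1, and D-gal + MSCs replicate 2 5.36-fold above replicate 1. The counts behind these levels were between 2335 and 9364 in D-gal + PBS and between 258 and 1132 in D-gal + MSCs, so counting error is small beside the spread between mice. Mean levels were 135 ± 79.6 and 15.8 ± 12.7 CPM (SD, n = 4 each), a log2 fold change of -3.10 ± 0.68 (SE, 95% interval -4.71 to -1.48), which is 8.56-fold lower in D-gal + MSCs. Only 1 of the 12171 genes had a lower fold change. The edgeR p was 0.00275 and the adjusted p 0.196, so the call rests on the unadjusted threshold. Over all alternatives, which include DESeq2 with an adjusted p of 0.000479 and limma-voom with 0.0902, the adjusted p ran up to 0.749, and the fold change stayed between -3.82 and -2.63 when any one mouse was left out.

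Exons of Slc25a25 overlap those of Naif1, a gene on the opposite strand, and the sources used here do not give the strand setting of the counting. Naif1 was between 3.29 and 5.77 CPM in D-gal + PBS and between 3.26 and 6.09 CPM in D-gal + MSCs, all below the lowest Slc25a25 level, with a log2 fold change of -0.07 ± 0.26 (SE).

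The related ATP-Mg carriers had quite different levels. Slc25a23, which encodes SCaMC-3, was at 17.0, 15.4, 14.0 and 13.5 CPM in D-gal + PBS and at 17.5, 15.5, 18.8 and 25.9 CPM in D-gal + MSCs. The groups overlapped, since D-gal + MSCs replicate 2 lay within the D-gal + PBS range and replicate 4 was well above all others. Its log2 fold change was 0.37 ± 0.17 (SE), with an unadjusted p of 0.0485 and an adjusted p of 0.460 in edgeR, and 0.20 without D-gal + MSCs replicate 4. Slc25a24, which encodes SCaMC-1, had means of 8.19 ± 0.591 and 8.18 ± 2.10 CPM (SD, n = 4 each), with a 95% interval of the log2 fold change from -0.44 to 0.44. That interval leaves out a change of the size seen in Slc25a25.

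**Figure D2:**
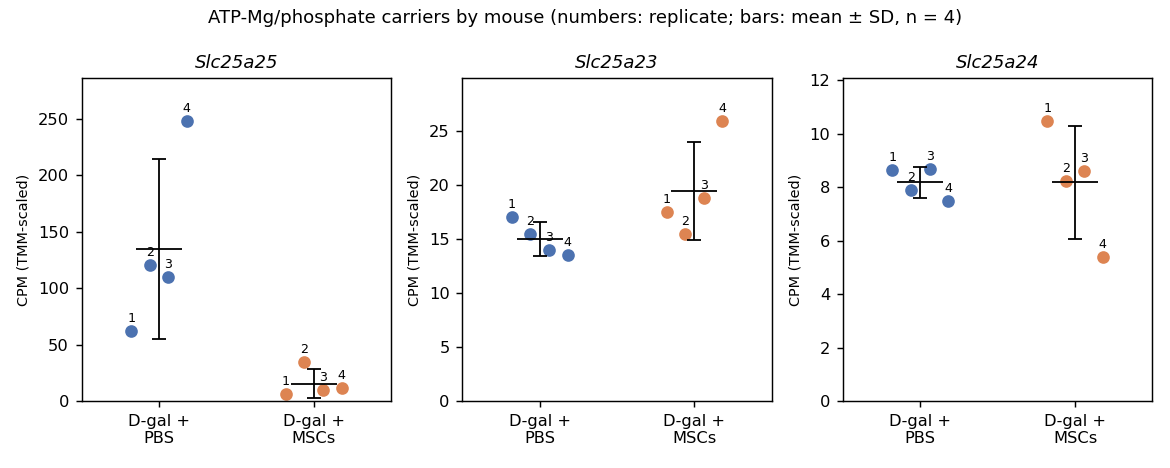
Levels of the 3 ATP-Mg/phosphate carriers in CPM (vertical axes, each starting at 0) in D-gal + PBS and D-gal + MSCs mice, with a point per mouse labelled by replicate and bars for mean ± SD (n = 4). All D-gal + MSCs points of Slc25a25 lie at or below 34.5 CPM and all D-gal + PBS points at or above 62.3 CPM, while the points of Slc25a23 and Slc25a24 overlap.

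The genes listed as activity-induced, which in muscle and other tissues respond quickly to contraction, cAMP or calcium, were read as a list beside Slc25a25. Of 12 listed, 11 were measured, 5 were called lower and 0 higher, with a median log2 fold change of -0.31. The lower genes were the NR4A receptors Nr4a1, Nr4a2 and Nr4a3 and the transcription factors Klf2 and Klf4, of which Klf2 and Klf4 are also prominent in endothelial cells. Klf2 was at 84.0 to 132 CPM in D-gal + PBS and 22.8 to 59.3 CPM in D-gal + MSCs, a log2 fold change of -1.63 ± 0.29 (SE, adjusted p 0.0889 in edgeR). For Klf4 the change was -1.45 ± 0.27 (SE, adjusted p 0.0957). Like Slc25a25, Nr4a3 was highest in D-gal + PBS replicate 4, at 17.2 CPM, and the next highest was replicate 2 at 11.3. Nr4a1 and Klf2 were also highest in replicate 4, whereas Nr4a2 was highest in replicate 2, at 9.90 against 8.52 CPM in replicate 4, and Klf4 in replicate 3, at 48.2 CPM. By contrast Fos, Egr1, Egr3 and Ppargc1a had unadjusted p-values of 0.802, 0.121, 0.717 and 0.723 in edgeR. Fos was still highest of all libraries in D-gal + PBS replicate 4, at 26.1 CPM. Egr1 and Ppargc1a had their highest D-gal + PBS levels there, at 13.0 and 36.6 CPM, but Egr3 did not. The highest D-gal + MSCs levels of Egr1 and Fos, 82.8 and 24.3 CPM, were in replicate 3.

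Slc25a4 and Slc25a5 encode ANT1, the exchanger of heart and skeletal muscle, and ANT2, a form often linked to dividing cells. Slc25a4 was at 3255, 2728, 3214 and 3991 CPM in D-gal + PBS and 3170, 3519, 3771 and 5054 CPM in D-gal + MSCs. The groups overlapped and replicate 4 was highest in each, with a log2 fold change of 0.23 ± 0.19 (SE, 95% interval -0.18 to 0.65, adjusted p 0.700 in edgeR). Slc25a5 was at 46.1, 46.2, 45.6 and 53.8 CPM in D-gal + PBS and at 36.6, 37.7, 46.5 and 41.5 CPM in D-gal + MSCs. Only D-gal + MSCs replicate 3 reached the D-gal + PBS range, and the log2 fold change was -0.24 ± 0.12 (SE, unadjusted p 0.0646, adjusted p 0.492 in edgeR). Neither passed the threshold, and their ratio within a library, which no scaling factor enters, is given as a description. Slc25a4 counts per Slc25a5 count were 70.7, 59.1, 70.5 and 74.1 in D-gal + PBS and 86.6, 93.3, 81.1 and 122 in D-gal + MSCs, so the groups did not overlap. The means were 68.6 ± 6.55 and 95.7 ± 18.1 (SD, n = 4 each), with an exact two-sided permutation p of 0.0286, the smallest that 4 against 4 allows. The ratio was chosen after the levels had been seen to lean in opposite directions, and that p is not adjusted. The p is therefore no independent test. No other pair of carriers was compared in this way, so how often such a ratio separates the groups is not known. The difference of 27.1 became 18.4 without D-gal + MSCs replicate 4, where the smallest possible p is 0.0571. A ratio does not show which of the genes moved, and Slc25a5 has 1 pseudogene named for it in GENCODE, with which reads may be shared. Whether the Slc25a5 level followed cell division was not tested. Of the 5 proliferation markers only Pcna was measured, at 25.3 to 34.0 CPM in D-gal + PBS and 27.8 to 31.7 CPM in D-gal + MSCs.

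**Figure D3:**
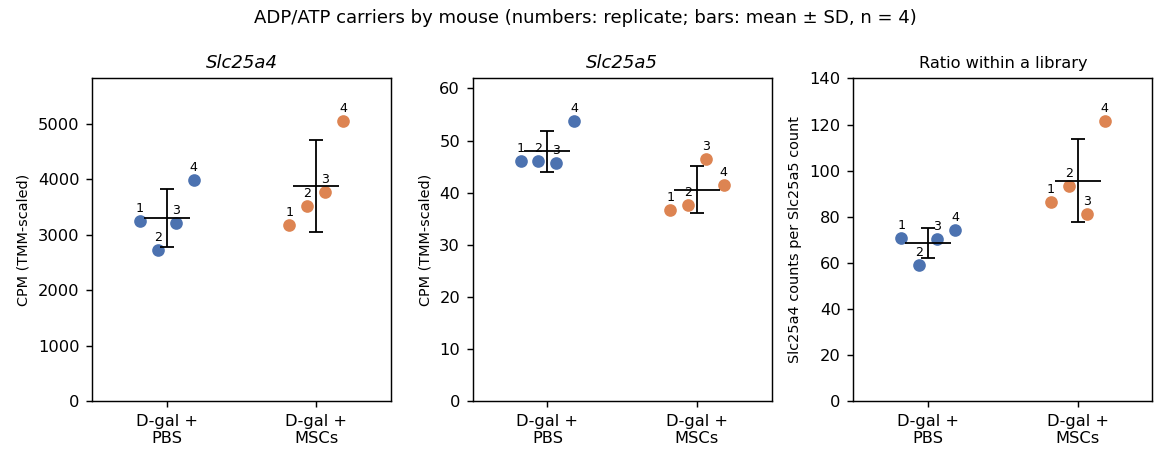
Levels of the ADP/ATP exchangers Slc25a4 and Slc25a5 in CPM and the ratio of their counts within a library (vertical axes from 0), with a point per mouse labelled by replicate and bars for mean ± SD (n = 4). The single levels overlap between the groups, while the ratio is at most 74.1 in D-gal + PBS and at least 81.1 in D-gal + MSCs.

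The phosphate carrier Slc25a3 brings in the phosphate that ATP synthase joins to ADP. It was at 818, 789, 839 and 1126 CPM in D-gal + PBS and 819, 889, 1154 and 1704 CPM in D-gal + MSCs. The groups overlapped, with D-gal + MSCs replicate 1 level with the first D-gal + PBS mouse and replicate 4 highest, and the log2 fold change was 0.35 ± 0.23 (SE, adjusted p 0.617 in edgeR). Of the ATP synthase genes listed, which are subunits and the inhibitory factor Atpif1, 15 were measured, 15 had a fold change above 0 and 0 were called, with a median of 0.34. Atp5pb and Atp5g3, those with the smallest p, had log2 fold changes of 0.37 ± 0.21 and 0.44 ± 0.25 (SE). Slc25a3 lay within the range of these genes, 0.02 (Atpif1) to 0.60.

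Slc25a20 encodes the carnitine/acylcarnitine carrier, which takes long-chain fatty acids bound to carnitine into the matrix for oxidation. It was at 63.1, 58.9, 62.2 and 68.9 CPM in D-gal + PBS and 62.0, 73.8, 112 and 163 CPM in D-gal + MSCs. The D-gal + PBS mice were within 1.17-fold of each other, whereas in D-gal + MSCs replicate 1 lay in the D-gal + PBS range and replicates 3 and 4 were far above it. Its log2 fold change was 0.70 ± 0.26 (SE, 95% interval 0.11 to 1.28), with an unadjusted p of 0.0239 and an adjusted p of 0.389 in edgeR. The call was lost on leaving out any of D-gal + PBS replicate 2, D-gal + MSCs replicate 3 or D-gal + MSCs replicate 4, with fold changes of 0.68, 0.65 and 0.39, and with library totals alone as the scaling, where the fold change was 0.47. Of the carnitine shuttle enzymes that work beside it, 5 of 5 were measured and 0 were called. Cpt1b, the muscle enzyme that makes acylcarnitine, had a log2 fold change of 0.45 ± 0.20 (SE, unadjusted p 0.0481), and Cpt2, which removes the carnitine again in the matrix, 0.53 ± 0.26 (SE, unadjusted p 0.0749).

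D-gal + MSCs replicates 3 and 4, where Slc25a20 was highest, also had the highest sums of the markers of slow and oxidative fibres. These markers summed to 3317, 2738, 7220 and 13989 CPM in D-gal + MSCs replicates 1 to 4. In replicate 3, Mb made up 5455 and Myh2 1241 of the 7220 CPM. Myh7, Tnnt1, Tnni1 and Tnnc1 were at 18.8, 13.0, 9.54 and 8.47 CPM there. They were below D-gal + PBS replicate 1, at 22.3, 13.1, 10.5 and 11.1 CPM. The other markers in replicate 3 were above every D-gal + PBS mouse. Myh7, the slow myosin, was at 355 CPM in D-gal + MSCs replicate 4, against at most 22.3 CPM in any other mouse. Replicates 3 and 4 were the top pair of all 8 libraries in 8 carriers, namely Slc25a3, Slc25a11, Slc25a17, Slc25a20, Slc25a22, Slc25a23, Slc25a34 and Slc25a39. D-gal + MSCs replicate 4 alone was the highest library for 16 of the 38 carriers, and no other library was highest for more than 7. Neither count was made over all genes, so they describe these libraries and are no result about the carriers. D-gal + MSCs replicate 4 also had the lowest TMM factor, 0.760, which raises its CPM above that from library totals alone. The part of this scaling in the counts was not tested. The part of fibre makeup in these levels was not tested.

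**Figure D4:**
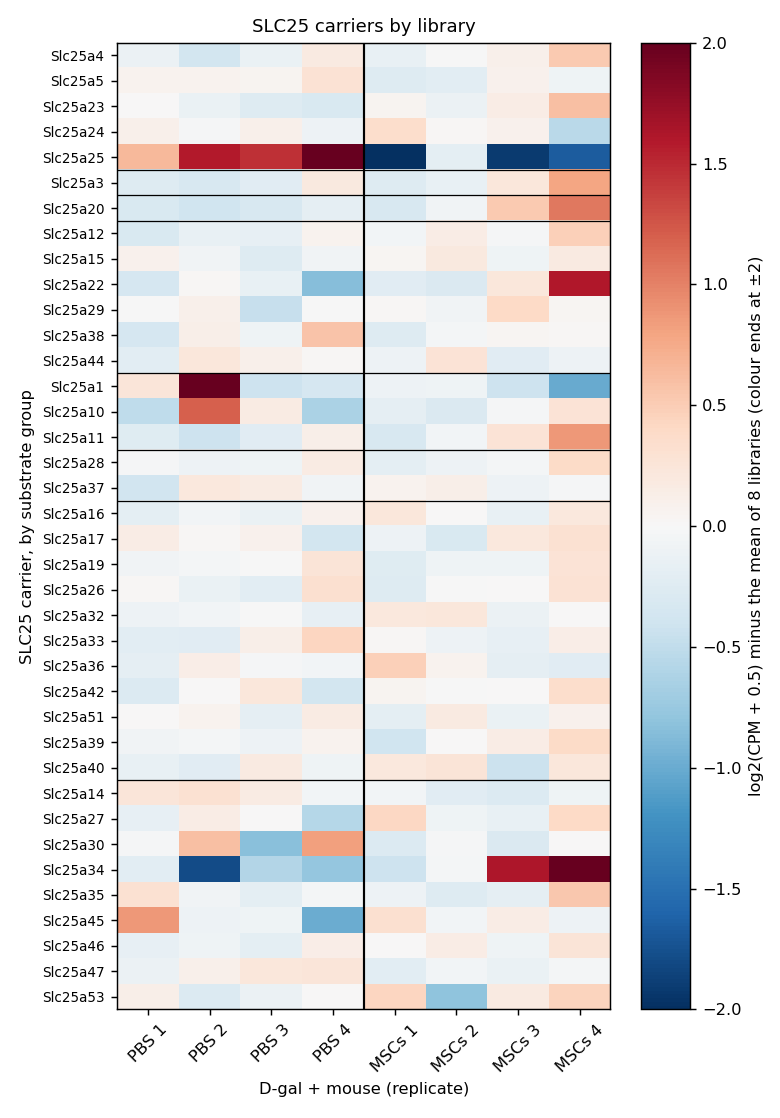
Level of each of the 38 carriers (rows, by substrate group) in each of the 8 libraries (columns), as log2(CPM + 0.5) minus the mean over the libraries. Red is above the mean and blue below, with colours ending at -2 and 2, which 1 value passed below and 3 above. Slc25a25 is red in the D-gal + PBS columns and blue in the D-gal + MSCs columns, while red for Slc25a20, Slc25a22 and Slc25a34 is mostly in D-gal + MSCs replicates 3 and 4.

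Among the amino acid carriers, 6 members were measured and 0 were called in either direction in edgeR. Slc25a12 encodes aralar, the muscle aspartate/glutamate carrier that drives the malate-aspartate shuttle. It was at 348, 387, 381 and 450 CPM in D-gal + PBS and 412, 475, 420 and 597 CPM in D-gal + MSCs, so the groups overlapped only through D-gal + PBS replicate 4. Its fold change on the log2 scale was 0.28 ± 0.15 (SE, unadjusted p 0.0952, adjusted p 0.538 in edgeR). Slc25a22, a glutamate carrier, was at 10.9, 14.1, 12.4 and 7.46 CPM in D-gal + PBS and 11.7, 11.2, 16.3 and 43.2 CPM in D-gal + MSCs. A single mouse, D-gal + MSCs replicate 4, set its log2 fold change of 0.87 ± 0.45 (SE, unadjusted p 0.0890), which was 0.22 without that mouse. In DESeq2 Slc25a22 was called higher at the study's thresholds, at 0.88 (unadjusted p 0.0200, adjusted p 0.270). The ornithine carrier Slc25a15 had means of 15.5 ± 1.57 and 17.4 ± 1.61 CPM (SD, n = 4 each). The remaining members were Slc25a29 for basic amino acids, Slc25a38 for glycine, which haem synthesis needs, and Slc25a44 for branched-chain amino acids, with log2 fold changes between -0.16 and 0.20.

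Among the di- and tricarboxylate carriers, 3 members were measured and 0 were called. Slc25a11, which exchanges oxoglutarate for malate in the same shuttle as aralar, was at 212, 187, 214 and 270 CPM in D-gal + PBS and 199, 240, 303 and 454 CPM in D-gal + MSCs. The order of the D-gal + MSCs mice was the one seen for Slc25a20, and the log2 fold change was 0.44 ± 0.23 (SE, unadjusted p 0.0882, adjusted p 0.528 in edgeR). It became 0.59 without D-gal + MSCs replicate 1, where it passed the threshold, and 0.17 without replicate 4. Its exons overlap those of Rnf167 on the other strand, whose log2 fold change was 0.07 ± 0.11 (SE).

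Of the malate-aspartate and glycerol phosphate shuttle enzymes that use these carriers or stand beside them, 6 of 6 were measured, 3 were called higher and 1 lower. Got2, the mitochondrial aspartate aminotransferase, was at 345, 276, 339 and 416 CPM in D-gal + PBS and 402, 439, 546 and 751 CPM in D-gal + MSCs, a log2 fold change of 0.63 ± 0.21 (SE, adjusted p 0.282 in edgeR). Its cytosolic partner Got1 had 0.72 ± 0.24 (SE, adjusted p 0.298), and cytosolic malate dehydrogenase, Mdh1, was the other gene called higher. The gene called lower was Gpd1, the cytosolic glycerol phosphate dehydrogenase, which belongs to the alternative shuttle. In each of Got1, Got2 and Mdh1, as in Slc25a11, D-gal + MSCs replicate 4 was the highest library.

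Slc25a1, the citrate carrier, and Slc25a10, the dicarboxylate carrier, both export carboxylic acids to the cytosol and are linked to lipid synthesis in fat tissue. Slc25a1 was at 8.49, 32.8, 5.22 and 5.57 CPM in D-gal + PBS and 6.66, 6.67, 5.24 and 3.29 CPM in D-gal + MSCs. Slc25a10 was at 3.79, 13.4, 6.36 and 3.42 CPM in D-gal + PBS and 4.91, 4.48, 5.51 and 6.85 CPM in D-gal + MSCs. For both, D-gal + PBS replicate 2 was the highest library by far and the other mice of the groups overlapped. Without it Slc25a1 went in log2 fold change from -1.25 ± 0.64 (SE, unadjusted p 0.0879) to -0.23, and that of Slc25a10 from -0.32 ± 0.40 (SE) to 0.27. The same library was the highest for the fat cell markers Adipoq, at 29.0 CPM against at most 4.75 in any other mouse, and Cfd, at 196 CPM against at most 21.5. Of the 7 fat cell markers listed, 5 were measured and summed to 268 to 620 CPM in D-gal + PBS and 266 to 480 CPM in D-gal + MSCs. Fabp4 did not follow Adipoq and Cfd, and was highest in D-gal + MSCs replicate 3. It made up much of these sums, 352 of 620 CPM in D-gal + PBS replicate 2 and 479 of 480 CPM in D-gal + MSCs replicate 3. Adipoq was at 0 counts in D-gal + MSCs replicates 3 and 4, and Plin1 and Cfd at 0 in replicate 4. The part of fat tissue in the level of these carriers was not tested.

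The iron carriers, the mitoferrins, deliver iron for haem and iron-sulphur clusters, and neither was called. Slc25a28, mitoferrin 2, was at 25.9, 24.7, 24.9 and 29.6 CPM in D-gal + PBS and 22.9, 24.7, 25.5 and 34.5 CPM in D-gal + MSCs, and its log2 fold change was 0.04 ± 0.15 (SE, 95% interval -0.28 to 0.35). Slc25a37, mitoferrin 1, which red blood cell precursors use, was at 19.1, 29.1, 28.0 and 23.9 CPM in D-gal + PBS and 26.2, 27.0, 23.3 and 24.7 CPM in D-gal + MSCs, with 0.02 ± 0.14 (SE, 95% interval -0.30 to 0.33). Both ranges overlapped throughout. Beside them, red blood cell markers, 5 of 7 measured, summed to 180 to 575 CPM in D-gal + PBS and 38.4 to 223 CPM in D-gal + MSCs, with 1 of 5 (Alas2) called lower. Of the iron-sulphur and haem enzymes, 11 of 11 were measured and 0 were called.

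Of the nucleotide and cofactor carriers, 11 members were measured and 0 were called, with log2 fold changes between -0.08 and 0.20. Slc25a51 carries NAD+ into the matrix. It was at 78.3, 82.4, 69.1 and 87.2 CPM in D-gal + PBS and 67.9, 88.6, 71.1 and 82.9 CPM in D-gal + MSCs. The groups lay over the same range, and the log2 fold change of -0.03 ± 0.12 (SE, adjusted p 0.956 in edgeR) had a 95% interval from -0.30 to 0.24. Slc25a32, the folate/FAD carrier, had 0.18 ± 0.14 (SE), Slc25a16, linked to coenzyme A, 0.16 ± 0.12 (SE), and Slc25a42, the coenzyme A carrier, 0.20 ± 0.16 (SE). These were the members of this group with the smallest p, from 0.215 to 0.234 unadjusted.

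Of the uncoupling-protein-like and other carriers, 9 members were measured, 1 was called higher and 0 lower. Slc25a34, whose substrate is not settled, was at 5.61, 1.56, 4.23 and 3.66 CPM in D-gal + PBS and 4.81, 6.37, 21.2 and 32.0 CPM in D-gal + MSCs. D-gal + MSCs replicate 1 lay within the D-gal + PBS range, replicate 2 just above it, and replicates 3 and 4 were several-fold higher. Means were 3.76 ± 1.68 and 16.1 ± 12.9 CPM (SD, n = 4 each), a log2 fold change of 2.09 ± 0.69 (SE, 95% interval 0.48 to 3.71), with an unadjusted p of 0.0176 and an adjusted p of 0.356 in edgeR. The call was lost on leaving out D-gal + PBS replicate 4, with a fold change of 2.08, and without D-gal + MSCs replicate 4 the fold change was 1.52. When D-gal + MSCs replicate 4 was left out along with D-gal + PBS replicate 2, neither Slc25a34, at 1.26, nor Slc25a20, at 0.35, was called.

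**Figure D5:**
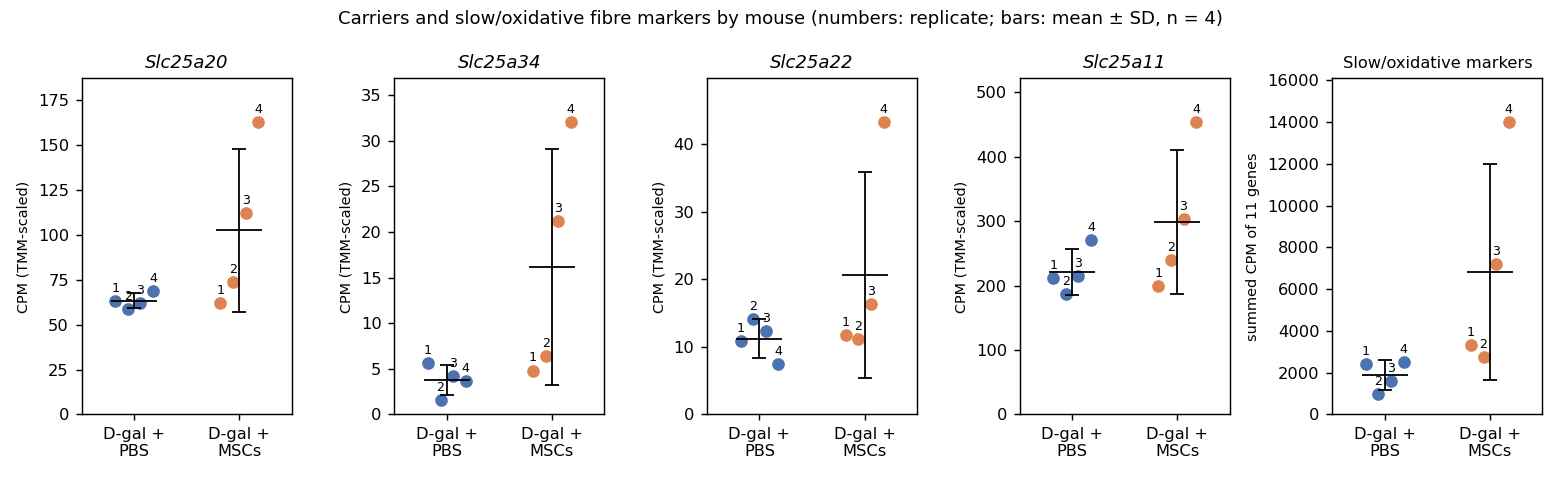
Levels of Slc25a20, Slc25a34, Slc25a22 and Slc25a11 in CPM and the summed CPM of 11 slow and oxidative fibre markers (vertical axes from 0), with a point per mouse labelled by replicate and bars for mean ± SD (n = 4). In each panel D-gal + MSCs replicate 4 is the highest mouse and replicate 3 the next, with marker sums of 13989 and 7220 CPM.

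Fold changes below 0 in this group were those of Slc25a30, Slc25a14 and Slc25a47. Slc25a30, the uncoupling-protein-like KMCP1, was at 12.7, 19.9, 6.98 and 23.3 CPM in D-gal + PBS and 10.6, 12.7, 10.5 and 13.0 CPM in D-gal + MSCs. The groups overlapped, the log2 fold change was -0.42 ± 0.31 (SE, unadjusted p 0.201), and it was called lower only without D-gal + PBS replicate 3. Slc25a47, a carrier known from liver, had -0.25 ± 0.18 (SE, unadjusted p 0.195). Slc25a14, the uncoupling-protein-like UCP5, was at 2.24, 2.36, 2.11 and 1.75 CPM in D-gal + PBS and 1.74, 1.49, 1.42 and 1.68 CPM in D-gal + MSCs. The groups did not overlap but were only just apart, since the lowest D-gal + PBS mouse, replicate 4, nearly equalled the highest D-gal + MSCs mouse, replicate 1, at 66 and 70 counts, a gap within counting error, and the log2 fold change of -0.42 ± 0.27 (SE, unadjusted p 0.155) was not called. Slc25a27, UCP4, had a log2 fold change of 0.31 ± 0.22 (SE, unadjusted p 0.188). Uncoupling and related proteins of the family under other symbols, 4 of 5 measured, had 0 called, with Ucp3, the muscle form, at 0.39 ± 0.41 (SE) and Mtch2 at 0.14 ± 0.15 (SE).

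Genes that bring carriers into the inner membrane or stand before them were read as a frame. Of the TIM22 import pathway, 10 of 10 genes were measured and 0 were called, with a median log2 fold change of 0.05 and values of 0.16 ± 0.12 (SE) for Tomm70a and 0.21 ± 0.16 (SE) for Tomm40. The porins of the outer membrane, 3 of 3 measured, also had 0 called, with Vdac1 at 0.27 ± 0.17 (SE) and Vdac2 at -0.06 ± 0.14 (SE). Of the calcium uptake genes, 7 of 7 were measured and 1 was called higher, Letm1, an inner membrane ion exchanger, at 0.51 ± 0.17 (SE, adjusted p 0.301 in edgeR). Micu2, a regulator of the uniporter, had 0.25 ± 0.14 (SE).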

How the data were processed

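RNA from the QUAD of 8 mice, 4 D-gal + PBS and 4 D-gal + MSCs, was sequenced, and replicates are separate mice. The deposited values are the authors' raw counts per gene. The submitters' processing notes name HISAT2 (version not given) and build GRCm39. The sources used here do not give the counting tool, the annotation or the strand setting. The injected cells were human, and no human build is named. Groups came from the sample titles.

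Counts were analysed in R 4.3.3 with edgeR 4.0.16 (filterByExpr, which removed 0 genes, TMM factors, robust quasi-likelihood F test with group as the only term) over 12171 genes, with Benjamini-Hochberg adjustment. The SE is the log2 fold change divided by the square root of F. The ratio of Slc25a4 to Slc25a5 was compared by an exact permutation test. The study's thresholds were read from its volcano plot. The steps were tested on simulated data.

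The carriers, their substrate groups and the gene lists were chosen with earlier results of these data known. Carriers named are those with an unadjusted p under 0.05, up to 3 per substrate group with the smallest p, and Slc25a4, Slc25a5, Slc25a3, Slc25a20, Slc25a12, Slc25a51 and Slc25a25. Up to 2 genes with the smallest p were to be named from each list. One gene of the lists is not reported here. Slc25a24, the remaining carriers given by name or range, Rnf167 and Naif1, and further list genes (among them Nr4a1, Nr4a2, Nr4a3, Fos, Egr1, Egr3, Ppargc1a, Mdh1, Gpd1, Myh2, Mb, Myl3, Myh7, Pvalb, Tnni1, Tnnt1, Adipoq, Cfd and Plin1) were named after their values were seen. Exon lengths and overlaps came from GENCODE vM21 by symbol. Overlaps with exons of other genes were found for 12 of the 38 carriers, 10 of them on the opposite strand. Alternatives were DESeq2 1.42.0, limma-voom (limma 3.58.1), library totals alone, median-of-ratios factors, no filter, a filter of 10 counts in every library, genes of mitochondrial DNA left out, the replicate number as a block, and each library or a pair of libraries left out. Depth limits low carriers, the lowest count of any carrier in a library being 23.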

Additional observations from a re-analysis of the deposited data

Results flagged for a closer look

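Of 42 groups of 4 mice checked for the 21 carriers named by rule, 5 had a mouse farther from the others than Dixon's 95% critical value allows, where chance alone gives about 1 in 20. In D-gal + PBS replicate 4, Slc25a5 was at 53.8 CPM, with the next mouse at 46.2, and Slc25a3 at 1126 CPM, with the next at 839. In D-gal + PBS replicate 2, Slc25a1 was at 32.8 CPM, with the next mouse at 8.49. In D-gal + MSCs replicate 4, Slc25a22 was at 43.2 CPM, with the next mouse at 16.3, and Slc25a42 at 29.2 CPM, with the next at 23.7.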

How the results depend on the processing

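Slc25a25 was called lower under every alternative, whereas the calls of Slc25a20 and Slc25a34 were not stable. Carriers called higher numbered 1 with library totals alone (Slc25a34, with Slc25a20 at 0.47), 0 with D-gal + MSCs replicate 4 left out along with D-gal + PBS replicate 2, 0 with DESeq2 at an adjusted p under 0.05, and 1 to 4 with any one library left out (4 without D-gal + MSCs replicate 1). Carriers called lower numbered 1 to 3 with any one library left out (3 without D-gal + PBS replicate 3). Carriers with an adjusted p under 0.05 numbered 1 in DESeq2 and 0 to 0 with any one library left out, and the Slc25a25 log2 fold change ran from -3.82 to -2.63. The median log2 fold change of the carriers was 0.07 to 0.13 with any one library left out. Library totals alone turned it to -0.13, where the median of all genes was -0.19, and turned Slc25a15 to -0.021, Slc25a28 to -0.17, Slc25a37 to -0.17, Slc25a32 to -0.00013, Slc25a16 to -0.027 and Slc25a42 to -0.015, so the direction of these small changes depends on the scaling. With the same pair of libraries left out, Slc25a10 was 0.13 and Slc25a28 -0.14. With any one library left out, Slc25a10 ran from -0.54 to 0.27, Slc25a28 from -0.11 to 0.11, Slc25a37 from -0.085 to 0.10 and Slc25a51 from -0.10 to 0.029. Slc25a22 was called in DESeq2, at 0.88. The unfiltered table held the same genes, so that alternative tests nothing.

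The labels do not say whether replicate numbers pair the mice. Same-numbered libraries had correlations of -0.003, 0.16, 0.10 and 0.22 in their deviations from the group means. Only the libraries of replicate 4 were each closest to the other. Such correlations cannot decide whether the mice were paired. With the replicate block, 2 carriers were called higher and 1 lower, 0 had an adjusted p under 0.05, the median was 0.07 and Slc25a25 was at -3.22 (adjusted p 0.131). Over all genes the block gave 78 with an adjusted p under 0.05, against 0 in the main edgeR fit. With 4 mice per group and no adjusted call in edgeR, the wide intervals of Slc25a22, Slc25a34 and Slc25a1 leave the size of their differences uncertain.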
